A study of Mus musculus with 12 samples.

Results

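Enteroendocrine cells are scattered among the absorptive cells of the intestinal lining, sense the content of the lumen and release peptide hormones or serotonin from dense granules. The 10 genes described here were taken as a fixed list: the hormone genes Cck, Gip, Gcg, Sct, Nts, Pyy, Ghrl and Sst, the serotonin synthesis gene Tph1 and the granule gene Chga. Each was read from the probe set with exactly 1 gene symbol that was brightest by its mean over the 12 arrays, and the 10 genes were drawn from 19938 genes read in that way. All 10 had a single such probe set, all 10 passed the filter on dim genes (an intensity over 50 on at least 1 array, with pancreatic acinar genes removed, which left 11917 genes), and each lay above 50 on all 12 arrays.

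The arrays were Affymetrix Mouse Gene 1.0 ST chips hybridised with RNA from scrapings of the mucosa and submucosa of the small intestine of male C57BL/6J mice, taken in the postprandial state. Old mice of 21 months and young mice of 4 months received a purified palm oil based diet with 45% (high-fat) or 10% (low-fat) of energy from fat for 2 weeks, after a run-in on the low-fat diet. The small intestine was cut into a proximal, a middle and a distal segment of equal length. Equal amounts of RNA from the 8 old or 6 young mice of a diet group were pooled for each segment, so that there was 1 array for each of the 12 combinations and the arrays stand for 4 pools of mice, each seen in 3 segments. No array has a replicate, no value carries the spread between mice, and the p-values below measure only the spread between these pooled arrays. Values are log2 intensities. In scrapings of whole tissue, fewer enteroendocrine cells and less RNA per cell cannot be told apart.

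By known biology, I cells of the upper gut release cholecystokinin (Cck), which empties the gallbladder, drives pancreatic enzyme secretion and promotes satiety, and K cells release the incretin GIP (Gip). L cells, commonest in the lower gut, process proglucagon (Gcg) to GLP-1 and GLP-2 and release peptide YY (Pyy), and N cells of the lower gut release neurotensin (Nts). S cells release secretin (Sct), which drives bicarbonate secretion, D cells release somatostatin (Sst), which restrains other endocrine cells, X/A-like cells release ghrelin (Ghrl), and enterochromaffin cells make serotonin with tryptophan hydroxylase 1 (Tph1) and store it with chromogranin A (Chga).

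The tissue and the segments were checked on marker genes. All 4 enterocyte markers (Vil1, Alpi, Fabp2, Epcam) lay above 50 on all 12 arrays, with summed linear intensities of 25253.0 to 28889.2. The ileal bile acid binding protein gene Fabp6 had proximal values of 4.59 to 6.07, middle values of 7.58 to 11.31 and distal values of 13.06 to 13.09. Pancreatic RNA was highest in the proximal arrays: the 8 acinar markers summed to 20997.6 to 49254.3 there, against 807.4 to 1232.8 on middle and 676.8 to 1055.2 on distal arrays, and none of the acinar genes entered a test. The islet gene Ins2 lay at 5.21 to 6.09 in the proximal segment and at 4.54 to 4.84 elsewhere. Markers of the stomach and Brunner gland were high in the proximal arrays of both high-fat pools, with sums of 1990.2 (old) and 3361.9 (young), against 726.0 (old) and 884.6 (young) in the low-fat pools, and lay at 284.1 to 330.0 in the middle and distal segments. Of the stomach markers, the parietal cell gene Atp4a and the intrinsic factor gene Cblif were under 50 on all 12 arrays. Of 7 enteric neuron and glia markers, 6 (Elavl4, Nos1, Prph, S100b, Uchl1 and Vip) were under 50 on all 12 arrays, as were the mast cell genes Cpa3, Fcer1a and Mcpt2. The neuron and glia genes Snap25 and Sox10, outside those 7, passed the filter on dim genes.

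**Figure D1:**
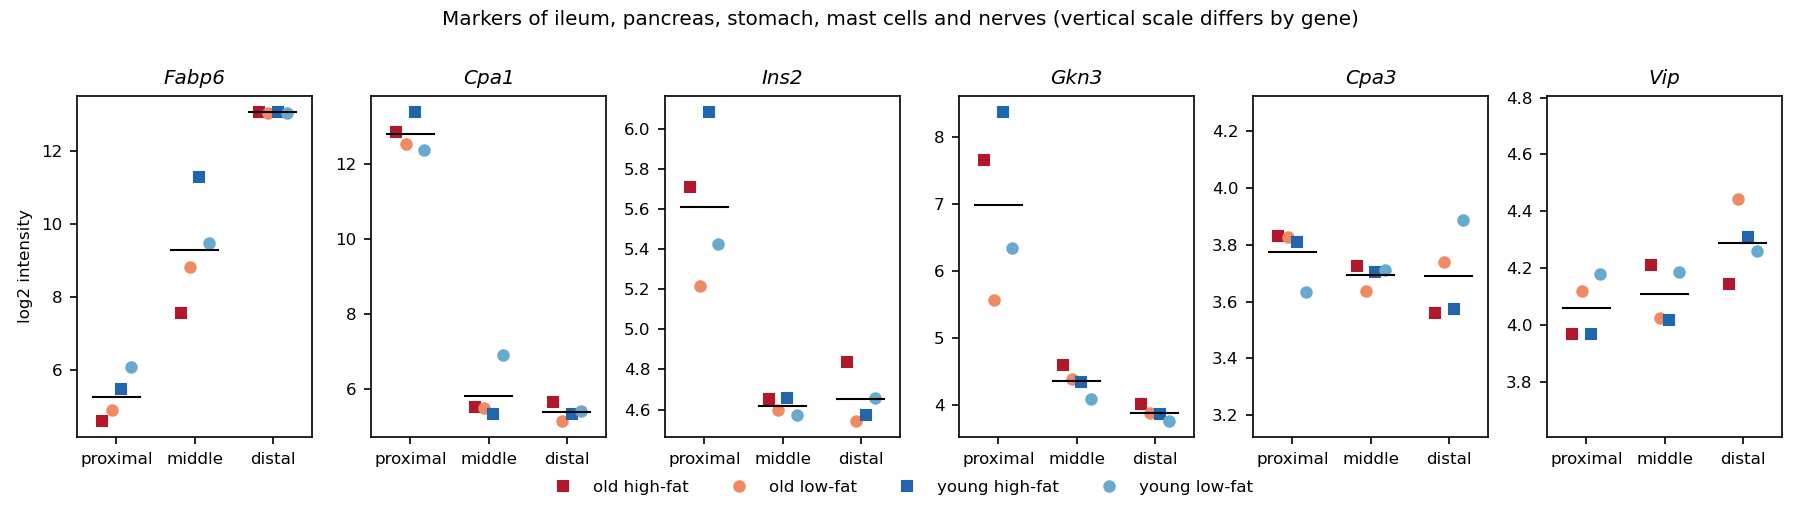
Log2 intensity (vertical axis, its own scale for each gene) of 6 marker genes in the proximal, middle and distal segments, with 1 point for each of the 4 pools and a line at their mean. Cpa1 and Ins2 (pancreas) and Gkn3 (stomach) were high in the proximal segment, Fabp6 (ileum) was highest in the distal segment, with the young high-fat pool highest in the middle at 11.31, and Cpa3 (mast cells) and Vip (nerves) stayed under 5.64, the log2 value of 50, on every array.

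The upstream sequences of 5 of the genes are shown because these genes mark the ends of the segment order or carry the diet difference described below: Cck and Gip, high at the proximal end, Nts and Pyy, high at the distal end, and Sst, which differed with diet. Each is the RefSeq stretch of 300 bases from 250 bases before to 50 bases after an annotated start (mouse build GRCm38.p6), printed 5′ to 3′ on the strand of the gene. The positions are chr9:121495645-121495944 (minus strand) for Cck, chr11:96024295-96024594 (plus strand) for Gip, chr10:102490369-102490668 (minus strand) for Nts, chr11:102107783-102108082 (minus strand) for Pyy and chr16:23890795-23891094 (minus strand) for Sst. Capitals mark matches, on either strand, to 4 motifs: the cAMP response element (TGACGTCA), the core read by GATA factors (GATAA), a core read by CDX factors (TTTAT) and the TATA box (TATAAA). On the other strand, a TTTAT match can share letters with a GATAA match or with a TATA box.
Cck: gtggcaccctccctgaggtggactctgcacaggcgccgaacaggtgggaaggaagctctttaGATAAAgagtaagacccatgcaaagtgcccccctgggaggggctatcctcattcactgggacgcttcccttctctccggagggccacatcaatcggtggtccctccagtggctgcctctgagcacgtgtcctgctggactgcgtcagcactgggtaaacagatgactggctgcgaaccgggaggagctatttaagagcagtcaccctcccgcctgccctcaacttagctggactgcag
Gip: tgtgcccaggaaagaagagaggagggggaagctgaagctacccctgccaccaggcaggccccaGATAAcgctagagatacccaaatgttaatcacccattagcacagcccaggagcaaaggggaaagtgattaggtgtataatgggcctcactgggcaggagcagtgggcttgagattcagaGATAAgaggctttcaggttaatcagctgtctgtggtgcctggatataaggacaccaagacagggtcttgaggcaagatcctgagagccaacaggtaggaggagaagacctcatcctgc
Nts: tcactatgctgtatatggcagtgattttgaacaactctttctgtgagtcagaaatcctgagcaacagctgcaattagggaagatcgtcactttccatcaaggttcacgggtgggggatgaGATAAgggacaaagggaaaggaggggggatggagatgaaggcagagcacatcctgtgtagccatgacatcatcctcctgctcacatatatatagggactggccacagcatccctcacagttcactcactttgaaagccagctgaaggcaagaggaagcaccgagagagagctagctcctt
Pyy: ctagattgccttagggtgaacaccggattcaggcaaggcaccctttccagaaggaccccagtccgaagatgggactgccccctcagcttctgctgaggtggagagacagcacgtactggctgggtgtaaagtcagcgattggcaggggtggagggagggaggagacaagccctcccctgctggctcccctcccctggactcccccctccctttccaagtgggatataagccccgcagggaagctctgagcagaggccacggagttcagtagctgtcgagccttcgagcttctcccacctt
Sst: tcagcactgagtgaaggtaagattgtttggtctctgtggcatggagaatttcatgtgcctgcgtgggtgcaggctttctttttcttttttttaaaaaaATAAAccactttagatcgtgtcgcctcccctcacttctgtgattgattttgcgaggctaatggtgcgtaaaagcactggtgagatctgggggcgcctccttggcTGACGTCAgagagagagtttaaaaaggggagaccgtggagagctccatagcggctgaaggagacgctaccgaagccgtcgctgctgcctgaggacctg
The 10 genes had 15 such stretches among the 32851 of the table, since some genes have several annotated starts. TGACGTCA was found for Sst alone, with its first base 48 bases before the start, and in 1.79% of all 32851 stretches. The element was first described in the rat somatostatin gene. GATAA was found in 3 of the 15 stretches (those of Cck, Gip and Nts), against 25.4% of all stretches, TTTAT in 6 of 15, against 40.0% of all, and TATAAA in 3 of 15 (those of Gcg, Sct and Chga), against 13.6% of all. The Pyy stretch held none of these motifs. A match is a description of the letters and not a site in use.

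The first question was where along the small intestine each gene was expressed, over all ages and diets. Between the proximal and the distal segment, 7 genes were higher in the proximal segment (Cck, Gip, Tph1, Ghrl, Chga, Sst and Sct) and 3 were lower there (Gcg, Nts and Pyy), all 10 with an adjusted p-value under 0.05 by limma with the pool as a block. Of all genes tested, 54.8% were called in that comparison, 27.5% as higher and 27.3% as lower in the proximal segment, so a call by itself was common. The sizes ran to 5.58-fold (Cck). The median difference of the 10 genes was 0.77 on the log2 scale, against -0.02 for all genes tested. For 9 of the 10 genes the range over the 12 arrays exceeded the median range of all genes, 0.55. The exception was Sct, with 0.46.

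Cck and Gip had the largest differences. In the order old high-fat, old low-fat, young high-fat and young low-fat pool, which is kept throughout, Cck lay at 9.87, 9.79, 9.71 and 9.97 in the proximal segment, at 9.12, 8.55, 8.82 and 8.57 in the middle segment and at 7.37, 7.16, 7.66 and 7.22 in the distal segment. The 3 segments did not overlap, and every pool stepped down at each boundary. The proximal minus middle difference was 1.07 ± 0.12 (SE, as for every ± below, adjusted p = 0.000156 by limma), the middle minus distal difference 1.41 ± 0.12 (adjusted p = 1.53e-05) and the proximal minus distal difference 2.48 ± 0.12 (adjusted p = 8.92e-08). Gip lay at 10.31, 10.43, 10.09 and 10.43 in the proximal, at 10.13, 10.45, 9.62 and 9.99 in the middle and at 8.07, 7.85, 8.19 and 8.00 in the distal segment. Proximal and middle arrays overlapped, and all of them lay above all distal arrays. Proximal minus middle was 0.26 (95% interval -0.05 to 0.58, adjusted p = 0.211) and did not pass, whereas middle minus distal was 2.02 ± 0.14 (adjusted p = 4.95e-06), a 4.07-fold step. Thus Cck had a step at both boundaries and Gip was called at the second only. The young high-fat array, with the lowest Gip and the highest Gcg of the 4 middle arrays, also had the highest Fabp6, at 11.31 against 7.58 to 9.49 in the other 3 pools. Tph1, Chga and Sst were also lowest in that array. Ghrl was highest there, Cck and Sct were not lowest, and Pyy and Nts were highest in other pools. Whether the place of the cut took part in these middle values was not tested.

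**Figure D2:**
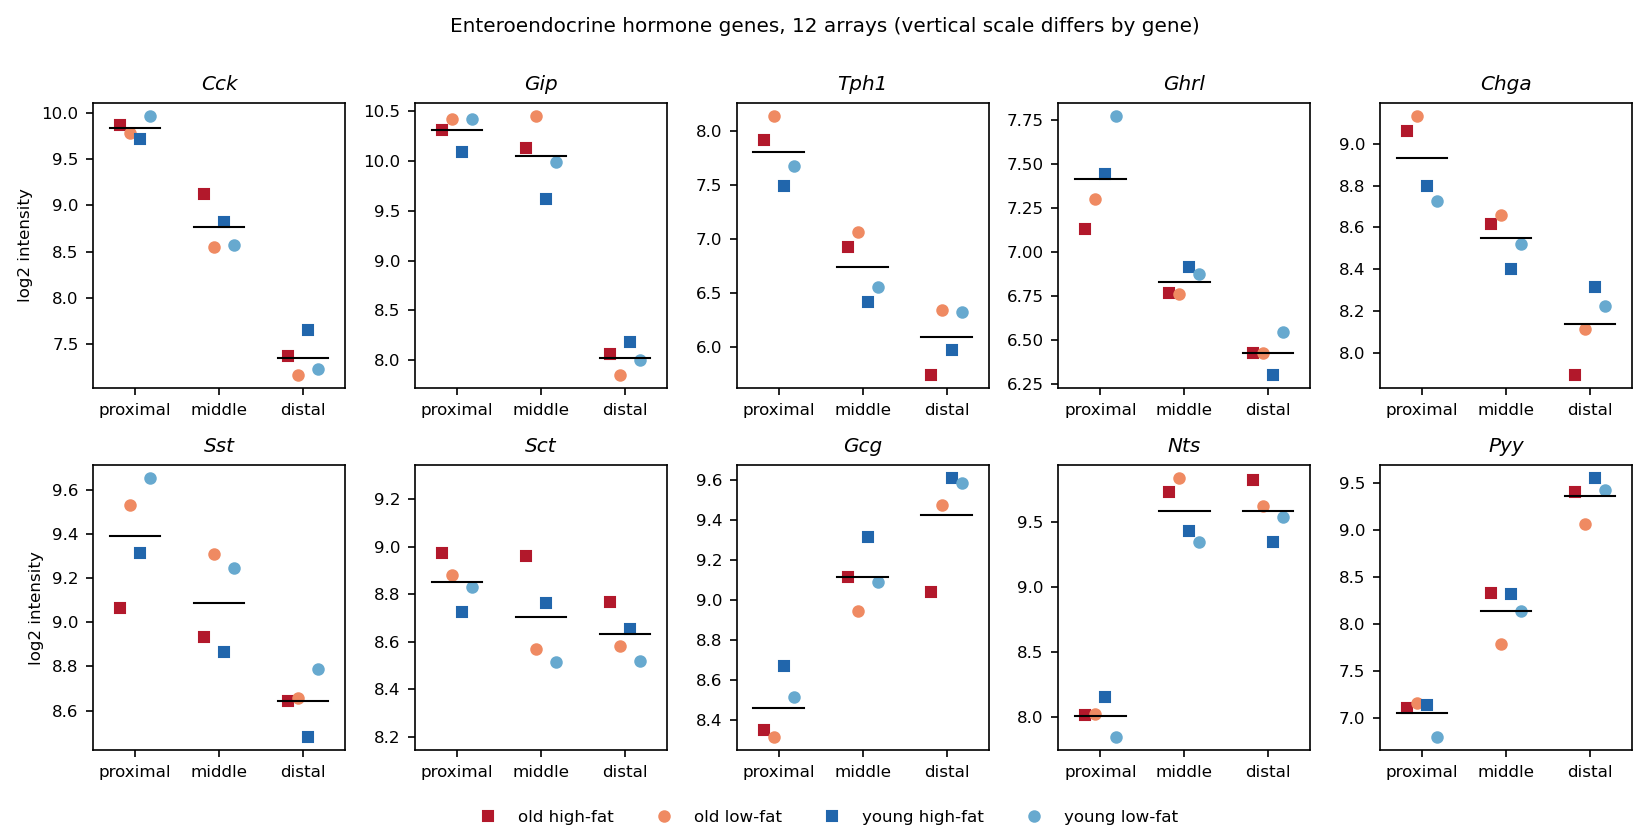
Log2 intensity (vertical axis, its own scale for each gene) of the 10 enteroendocrine genes in the proximal, middle and distal segments, with squares for high-fat and circles for low-fat pools, red shades for old and blue shades for young mice, and a line at the mean of the 4 pools. Cck, Tph1, Ghrl, Chga, Sst and Gip were highest in the proximal segment by their means, Pyy and Gcg in the distal segment, Nts was low in the proximal segment only, and the segments of Sct overlapped.

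The serotonin gene Tph1 and the granule gene Chga were also highest in the proximal segment. Tph1 lay at 7.91, 8.14, 7.49 and 7.68 in the proximal, at 6.93, 7.06, 6.42 and 6.55 in the middle and at 5.74, 6.34, 5.97 and 6.32 in the distal segment. No segments overlapped, although the lowest middle array (6.42) lay close to the highest distal array (6.34). Its proximal minus distal difference was 1.71 ± 0.13 (3.27-fold, adjusted p = 2.36e-06 by limma), with 1.07 at the first boundary and 0.65 at the second, both called. Chga lay at 9.06, 9.13, 8.80 and 8.73 in the proximal, at 8.62, 8.66, 8.40 and 8.52 in the middle and at 7.89, 8.11, 8.31 and 8.22 in the distal segment. No segments overlapped, and the difference between the ends was 0.79 ± 0.11 (1.73-fold, adjusted p = 0.000178). Mast cells also express Tph1 in mice: 3 of their 5 markers were under 50 on every array, Mcpt1 lay above it on some, and Kit, which pacemaker cells share, was lower in the proximal segment (-1.26). The part of mast cells in the Tph1 levels was not tested.

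Ghrl, Sst and Sct declined less. Ghrl lay at 7.13, 7.30, 7.44 and 7.77 in the proximal segment, at 6.76 to 6.92 in the middle and at 6.30 to 6.55 in the distal segment, with no overlap. Its proximal minus distal difference was 0.99 ± 0.09 (1.98-fold, adjusted p = 8.93e-06 by limma). Sst lay at 9.07, 9.53, 9.31 and 9.65 in the proximal, at 8.93, 9.31, 8.86 and 9.25 in the middle and at 8.64, 8.66, 8.48 and 8.79 in the distal segment. Its proximal and middle arrays overlapped, the distal arrays lay below all others, and the ends differed by 0.75 ± 0.08 (1.68-fold, adjusted p = 2.87e-05). Sct varied least, with proximal values of 8.72 to 8.97, middle values of 8.51 to 8.96 and distal values of 8.52 to 8.77. Its segments overlapped, neither boundary was called (0.15, 95% interval -0.01 to 0.31, and 0.07, 95% interval -0.08 to 0.23), and the ends differed by 0.22 ± 0.07 (1.17-fold, adjusted p = 0.0212). The stomach also makes ghrelin and somatostatin, and pancreatic islets make somatostatin, and the stomach and islet markers given above were likewise highest in the proximal segment. Among the 4 proximal arrays Ghrl was lowest in the old high-fat pool and highest in the young low-fat pool, while the gastric gene Gkn3 lay at 7.66, 5.57, 8.38 and 6.34. The part of stomach or islet RNA in these proximal levels was not tested.

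The L cell and N cell genes ran the other way. Pyy lay at 7.11, 7.16, 7.14 and 6.79 in the proximal, at 8.33, 7.78, 8.32 and 8.14 in the middle and at 9.41, 9.07, 9.56 and 9.43 in the distal segment. The segments did not overlap, and Pyy was lower in the proximal than in the distal segment by 4.97-fold (-2.31 ± 0.11, adjusted p = 9.29e-08 by limma). Its steps were -1.09 ± 0.11 for proximal minus middle and -1.22 ± 0.11 for middle minus distal. Gcg, whose product L cells release beside peptide YY, lay at 8.35, 8.31, 8.67 and 8.51 in the proximal, at 9.12, 8.95, 9.32 and 9.09 in the middle and at 9.04, 9.48, 9.61 and 9.59 in the distal segment. Its proximal arrays lay below all others, the middle and distal arrays overlapped through the old high-fat pool, and the ends differed by -0.97 ± 0.09 (1.95-fold, adjusted p = 1.01e-05). Pancreatic islets express Gcg as well, and the proximal arrays, where islet and acinar markers were highest, held its lowest values. The part of islet RNA in the Gcg levels was not tested.

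Nts had a single step. It lay at 8.02, 8.02, 8.16 and 7.84 in the proximal, at 9.73, 9.84, 9.43 and 9.34 in the middle and at 9.82, 9.62, 9.34 and 9.54 in the distal segment. Proximal arrays lay below all others and the middle and distal arrays overlapped over most of their range. Proximal minus middle was -1.57 ± 0.10 (2.97-fold, adjusted p = 4.23e-06 by limma), and middle minus distal was 0.00 (95% interval -0.22 to 0.23, adjusted p = 0.986). Neurotensin is also made by nerves. Of their 7 markers 6 were under 50 on every array, and the seventh, Ret, lay above it on all 12, at 5.88 to 6.05 in the proximal, 5.97 to 6.27 in the middle and 6.18 to 6.41 in the distal segment. Snap25 and Sox10, outside those 7, passed the filter on dim genes too. The part of nerves in the Nts levels was not tested.

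**Figure D3:**
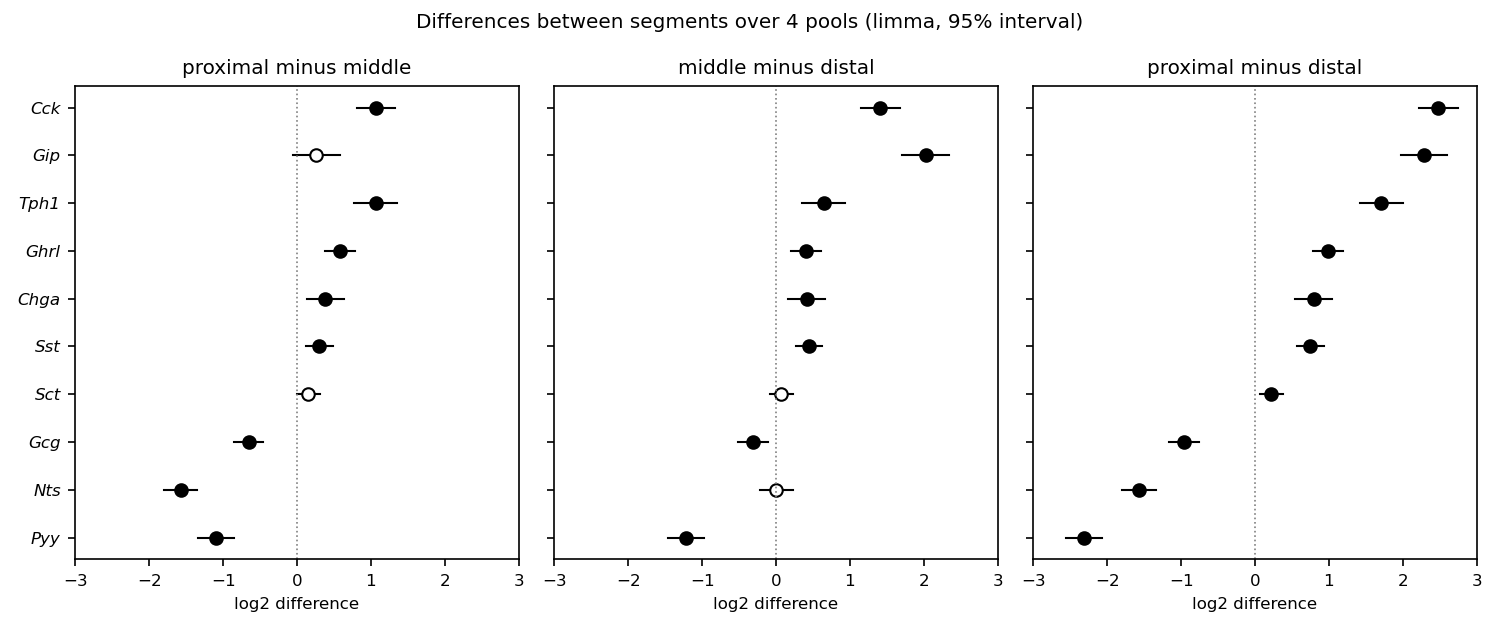
Log2 differences between segments (horizontal axis) with 95% intervals from limma over the 4 pools for the 10 genes, filled where the adjusted p-value was under 0.05. Cck stands at 1.07, 1.41 and 2.48 and Pyy at -1.09, -1.22 and -2.31 in the 3 panels, Gip has its step between middle and distal (2.02) and Nts its step between proximal and middle (-1.57).

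At the first boundary 8 of the 10 genes were called (5 higher in the proximal segment and 3 lower), against 24.9% of all genes (10.9% higher and 14% lower), and at the second 8 (6 higher in the middle segment and 2 lower), against 34.6% of all genes (20% higher and 14.6% lower). The comparisons share arrays. Several of the smaller steps were lost when a single pool was left out. Sst between proximal and middle (0.30, adjusted p = 0.0222 by limma) was lost without the old low-fat, the young high-fat or the young low-fat pool (adjusted p = 0.0591, 0.143 and 0.111), and Gcg between middle and distal (-0.31, adjusted p = 0.0235) without the same pools (0.144, 0.0848 and 0.126). Chga was lost at the first boundary without the old low-fat (0.14) or young high-fat pool (0.0737) and at the second without the old high-fat (0.0557) or old low-fat pool (0.0905), Ghrl at the second without the young high-fat pool (0.0549), and Sct between the ends without the old low-fat (0.0954) or young low-fat pool (0.0904). By the 2-fold criterion between arrays of a pool, 26 of the 40 proximal and distal pairs passed. In each of the 4 pools Cck, Gip and Tph1 were over 2-fold higher and Nts and Pyy over 2-fold lower in the proximal array, while over the 4 pools 3.86% of all gene values passed it as higher and 2.75% as lower.

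Other genes of the same cells differed in both directions between the ends of the small intestine, a comparison in which 54.8% of all genes were called (27.5% higher and 27.3% lower in the proximal segment). Of 11 tested genes of granules and prohormone processing (median -0.05, against -0.02 for all genes), 2 were higher and 2 lower in the proximal segment, and 7 were not called, among them the prohormone convertase gene Pcsk1 (0.10, adjusted p = 0.342 by limma) and the carboxypeptidase gene Cpe (-0.10, adjusted p = 0.621). Chromogranin B (Chgb) was higher in the proximal segment by 0.94 ± 0.06 and secretogranin II (Scg2) by 0.23 ± 0.07. The amidating enzyme Pam (-0.87 ± 0.06) and the granule phosphatase Ptprn2 (-0.38 ± 0.08) were lower there. Chgb lay at 8.53, 8.52, 8.18 and 8.30 in the proximal, at 7.98, 8.06, 7.60 and 7.70 in the middle and at 7.62, 7.49, 7.32 and 7.36 in the distal segment. Its proximal arrays lay above all others, as those of Chga did.

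Genes of serotonin synthesis and handling were higher in the proximal segment in 4 of 8 cases, with 1 lower, so 5 of 8 were called against 54.8% of all genes, and their median difference was 0.43. The decarboxylase gene Ddc, which completes serotonin synthesis and is also expressed by absorptive cells, was higher by 1.22 ± 0.06, the vesicular transporter gene Slc18a1 by 0.83 ± 0.07 and Gch1, which makes the cofactor of Tph1, by 0.75 ± 0.10. The irritant channel gene Trpa1 of enterochromaffin cells was higher by 1.66 ± 0.14, but lay above an intensity of 50 on only 5 of 12 arrays. The serotonin receptor gene Htr4 was lower (-0.56 ± 0.09). The serotonin uptake gene Slc6a4 and the oxidase genes Maoa and Maob were not called, with differences of 0.12, -0.03 and 0.09. Slc18a1 lay at 7.44, 7.57, 7.40 and 7.51 in the proximal, at 7.62, 7.45, 7.30 and 7.41 in the middle and at 6.59, 6.83, 6.48 and 6.71 in the distal segment, so its proximal and middle arrays overlapped, unlike those of Tph1.

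Of 15 tested transcription factors that act in enteroendocrine cells, 2 were higher and 6 lower in the proximal segment, a called share close to the 54.8% of all genes. Neurod1, which follows commitment to the endocrine lineage, was higher by 0.71 ± 0.11 (adjusted p = 0.000346 by limma), and Mlxipl, a glucose-responsive factor that absorptive cells share, by 0.74 ± 0.09. Those lower in the proximal segment were Foxa1 (-0.93), Atoh1 (-0.80), which sets the secretory fate of goblet and Paneth cells too, Etv1 (-0.46), Hnf4a (-0.41), Rfx3 (-0.30) and Gfi1 (-0.20). The endocrine factors Rfx6 (0.22, adjusted p = 0.118), Nkx2-2 (0.21, adjusted p = 0.0507) and Insm1 (0.08, adjusted p = 0.378) were not called. The median over the 15 genes was -0.03.

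**Figure D4:**
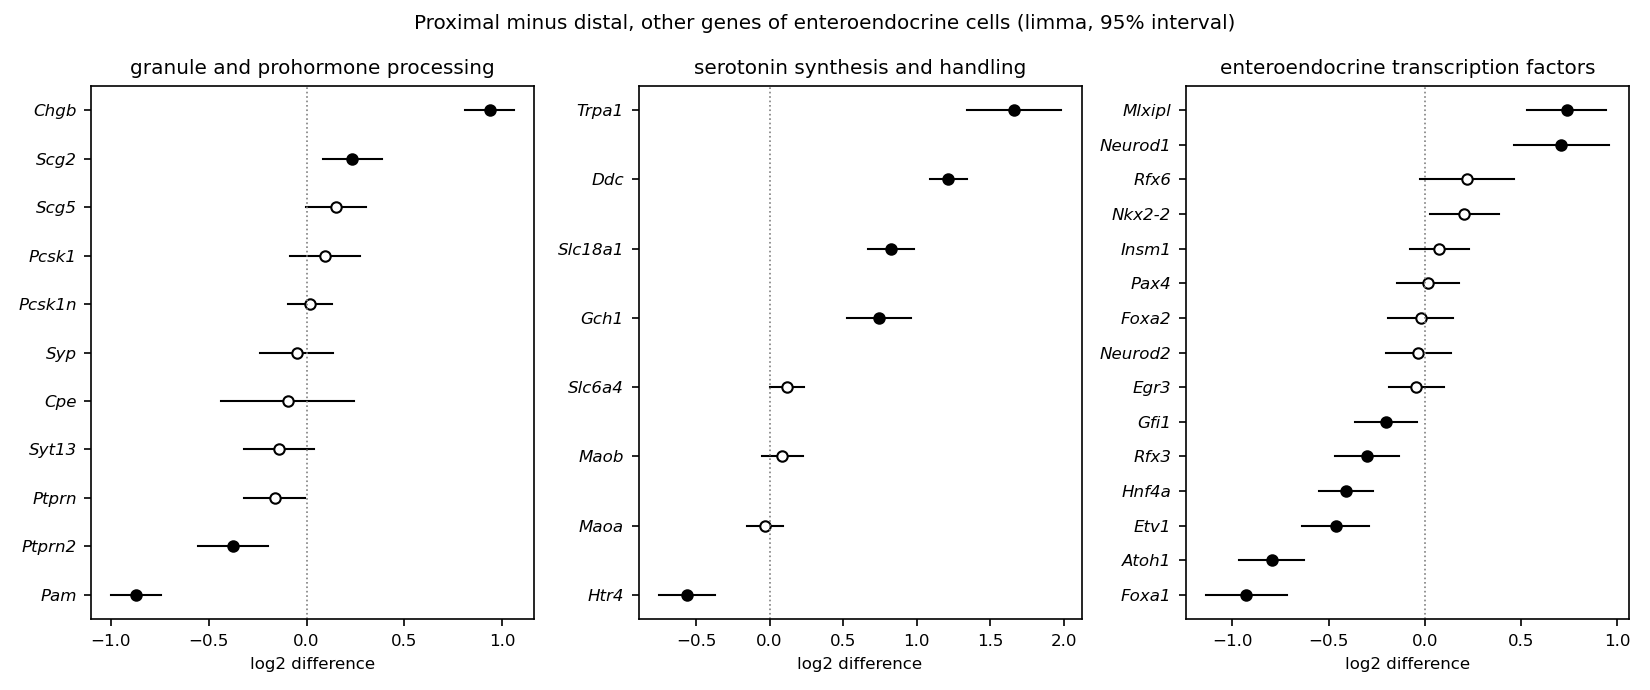
Proximal minus distal log2 differences (horizontal axis) with 95% intervals from limma for tested genes of granules and prohormone processing, serotonin synthesis and handling, and enteroendocrine transcription factors, filled where the adjusted p-value was under 0.05. Chgb (0.94), Ddc (1.22), Slc18a1 (0.83) and Neurod1 (0.71) lay on the proximal side with Chga and Tph1, while Pam (-0.87), Atoh1 (-0.80) and Foxa1 (-0.93) lay on the distal side.

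Of 12 tested sensors of nutrients (median -0.07), 3 were higher and 5 lower in the proximal segment. Here and for the receptor, peptidase and peptide genes that follow, the share of all genes was again 27.5% higher and 27.3% lower. The fatty acid transporter gene Cd36 (1.39 ± 0.09), the sodium-glucose transporter gene Slc5a1 (0.86 ± 0.08), both chiefly of absorptive cells, and Gpr17 (0.54 ± 0.09) were higher. The long-chain fatty acid receptor genes Ffar1 (-0.45 ± 0.10) and Ffar4 (-0.50 ± 0.11), Ildr1 (-0.72 ± 0.08), tied to fat-stimulated cholecystokinin release in mice, Gpr35 (-0.30) and the bile acid receptor gene Gpbar1 (-0.23) were lower. Of 7 tested hormone receptors (median 0.17), the receptor genes for cholecystokinin (Cckar, 1.08 ± 0.17), GLP-1 (Glp1r, 0.88 ± 0.12) and GLP-2 (Glp2r, 0.50 ± 0.11) were higher in the proximal segment and the neurotensin-binding sorting receptor gene Sort1 (-0.65 ± 0.06) lower. Glp1r lay above 50 on 8 and Glp2r on 5 of 12 arrays. Cckar lay above 50 on 4 of 12 arrays, all proximal, and is also expressed in mouse pancreatic acinar cells, whose RNA was present in those arrays. Of 9 peptidases that cleave gut hormones (median -0.25), 2 were higher in the proximal segment and 5 lower. Neprilysin (Mme) was higher by 1.34 ± 0.07, and Anpep (-0.88), Enpep (-0.77) and the GLP-1 inactivating enzyme Dpp4 (-0.25 ± 0.06, adjusted p = 0.00457) were lower. Among 7 other tested peptide genes (median -0.02), Iapp, which islets also express, was higher in the proximal segment (1.04 ± 0.16) and Adm lower (-0.46 ± 0.09). Adm lay above 50 on 8 of 12 arrays. Gastrin (Gast, 0.04, adjusted p = 0.804 by limma) and Ppy (0.00, adjusted p = 0.974) were not called.

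The diet comparison asked whether 2 weeks of high-fat feeding altered the genes. Averaged over the 3 segments of a pool, Pyy was higher and Sst and Tph1 were lower in high-fat pools, 3 of 10 genes against 5.72% of all genes called by limma (2.55% higher and 3.17% lower). Without adjustment 6 of the 10 had a p-value under 0.05, against 23.3% of all genes. Each change was small, 1.24-fold or less. That fit rests on 4 pool means with 1 residual degree of freedom, and its spread is borrowed across genes.

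Sst had the largest of these differences. Its pool means were 8.88 (old) and 8.89 (young) on the high-fat diet, against 9.17 (old) and 9.23 (young) on the low-fat diet, so both high-fat pools lay below both low-fat pools. The difference was -0.31 ± 0.05 (adjusted p = 0.0183 by limma), with lower high-fat values in 6 of 6 pairs of arrays, from -0.47 to -0.01. The smallest was the distal pair of old mice. Within segments it was -0.40 ± 0.09 in the proximal segment (adjusted p = 0.147), -0.38 ± 0.09 in the middle segment (adjusted p = 0.0803) and -0.16 ± 0.09 in the distal segment (95% interval -0.37 to 0.05, adjusted p = 0.397). The stomach and islets make somatostatin as well: in the proximal segment 5 of 12 tested stomach and Brunner gland genes were higher on the high-fat diet (Gkn3 by 2.07 and Gkn2 by 2.55), and over the pool means Ins2 was higher by 0.25 ± 0.05 (adjusted p = 0.0348). The gastric protease gene Ctse had a proximal difference of -0.48 ± 0.12 (adjusted p = 0.195). The part of stomach or islet RNA in the Sst difference was not tested.

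Tph1 means were 6.86 (old) and 6.63 (young) on the high-fat diet, against 7.18 (old) and 6.85 (young) on the low-fat diet. Within each age the high-fat pool was lower, and the old high-fat and young low-fat pools lay side by side. The difference was -0.27 ± 0.05 (adjusted p = 0.0303 by limma), again lower in 6 of 6 pairs, from -0.60 in the distal segment of old mice to -0.14 in the middle segment. The mast cell marker Kit, which pacemaker cells share, was lower on the high-fat diet, like Tph1, in 6 of 6 pairs by its values (-0.26 ± 0.06 over the pool means, adjusted p = 0.0612). In the distal segment Kit had -0.46 and Tph1 -0.48. The mast cell gene Mcpt1 had 0.33 ± 0.345 in the middle, -0.21 ± 0.345 in the proximal and -0.43 ± 0.345 in the distal segment, none of them called. The 5 mast cell markers summed to 217.3 (old) and 283.5 (young) in distal high-fat arrays, against 336.6 (old) and 322.7 (young) in distal low-fat arrays. In the middle segment the sums were 212.1 (old) and 258.0 (young) on the high-fat diet, against 249.2 (old) and 219.2 (young) on the low-fat diet. The part of mast cells in the Tph1 difference was not tested. Pyy means were 8.28 (old) and 8.34 (young) on the high-fat diet, against 8.01 (old) and 8.12 (young) on the low-fat diet, without overlap. The difference was 0.25 ± 0.05 (adjusted p = 0.0358), higher in 5 of 6 pairs, the exception being the proximal pair of old mice (-0.06). The Pyy call was lost when any 1 segment was left out of the means (adjusted p = 0.0574 without the proximal, 0.206 without the middle and 0.0713 without the distal segment). Tph1 was lost without the middle (0.0756) or distal segment (0.177) and Sst without the middle segment (0.103), and all 3 were lost with no filter on dim genes (0.11 for Pyy, 0.0671 for Sst and 0.0966 for Tph1).

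The other 7 genes did not pass over the pool means. Cck averaged 8.79 (old) and 8.73 (young) on the high-fat diet and 8.50 (old) and 8.59 (young) on the low-fat diet, a difference of 0.22 ± 0.06 (adjusted p = 0.0725 by limma), with 5 of 6 pairs higher. Cck was higher in both middle pairs (by 0.57 in old and 0.26 in young mice) and both distal pairs (by 0.21 and 0.43). Without the proximal segment its difference was 0.37 (adjusted p = 0.0108). Sct was higher in 5 of 6 pairs (0.16 ± 0.05, adjusted p = 0.143) and Gip lower in 4 of 6 (-0.12 ± 0.05, adjusted p = 0.211). Gip was lower on the high-fat diet in both proximal and both middle pairs and higher in both distal pairs (0.22 in old and 0.19 in young mice). The middle minus distal difference of these diet effects was -0.55 ± 0.11 (adjusted p = 0.186), so the difference between segments did not pass. Gcg (0.03), Nts (0.05), Chga (-0.05) and Ghrl (-0.12) had 95% intervals that included 0.

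Within single segments no hormone gene was called for diet by limma. The share of all genes called was 0.319% for the proximal, 2.54% for the middle and 0.529% for the distal segment. At an unadjusted p-value under 0.05 there were 4, 5 and 3 of the 10 genes, against 10.8, 18 and 17.5% of all genes. With an intensity trend and robust variance in limma, the counts were 1 for the proximal (Sst), 4 for the middle (Cck, Gip, Sct and Sst) and 1 for the distal segment (Tph1). Among genes of the same cells, some were called over the pool means. The convertase gene Pcsk1 (-0.25 ± 0.05), Cpe (-0.31 ± 0.05), Neurod1 (-0.23 ± 0.05) and Trpa1 (-0.30 ± 0.05) were lower on the high-fat diet, and Gch1 (0.24 ± 0.05) was higher. Others had small differences of both signs within segments. In the proximal, middle and distal segments Chgb had -0.05, -0.09 and 0.05, and Insm1 -0.13, 0.13 and 0.05, none of them called. A joint shift of these genes was not tested. Over the pool means 2.55% of all genes were called higher and 3.17% lower. Smooth muscle genes were lower in the same comparison in 4 of 12 cases (Actg2, Acta2, Myl9 and Myh11, from -0.44 to -0.28), and in the distal segment the 4 markers summed to 1114.2 (old) and 2697.5 (young) on the high-fat diet, against 1999.2 (old) and 3724.0 (young) on the low-fat diet. The part of muscle in the diet differences was not tested. Cd36 (0.41 ± 0.05) and Cckar (0.29 ± 0.05) were higher, and Slc5a1 (-0.28 ± 0.05) and adrenomedullin (Adm, -0.56 ± 0.05) lower. Adm lay above an intensity of 50 on only 8 of 12 arrays. The acinar markers, whose cells also express Cckar, summed to 32825.8 (old) and 49254.3 (young) in the proximal arrays on the high-fat diet, against 25581.5 (old) and 20997.6 (young) on the low-fat diet, and their part in the Cckar difference was not tested.

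**Figure D5:**
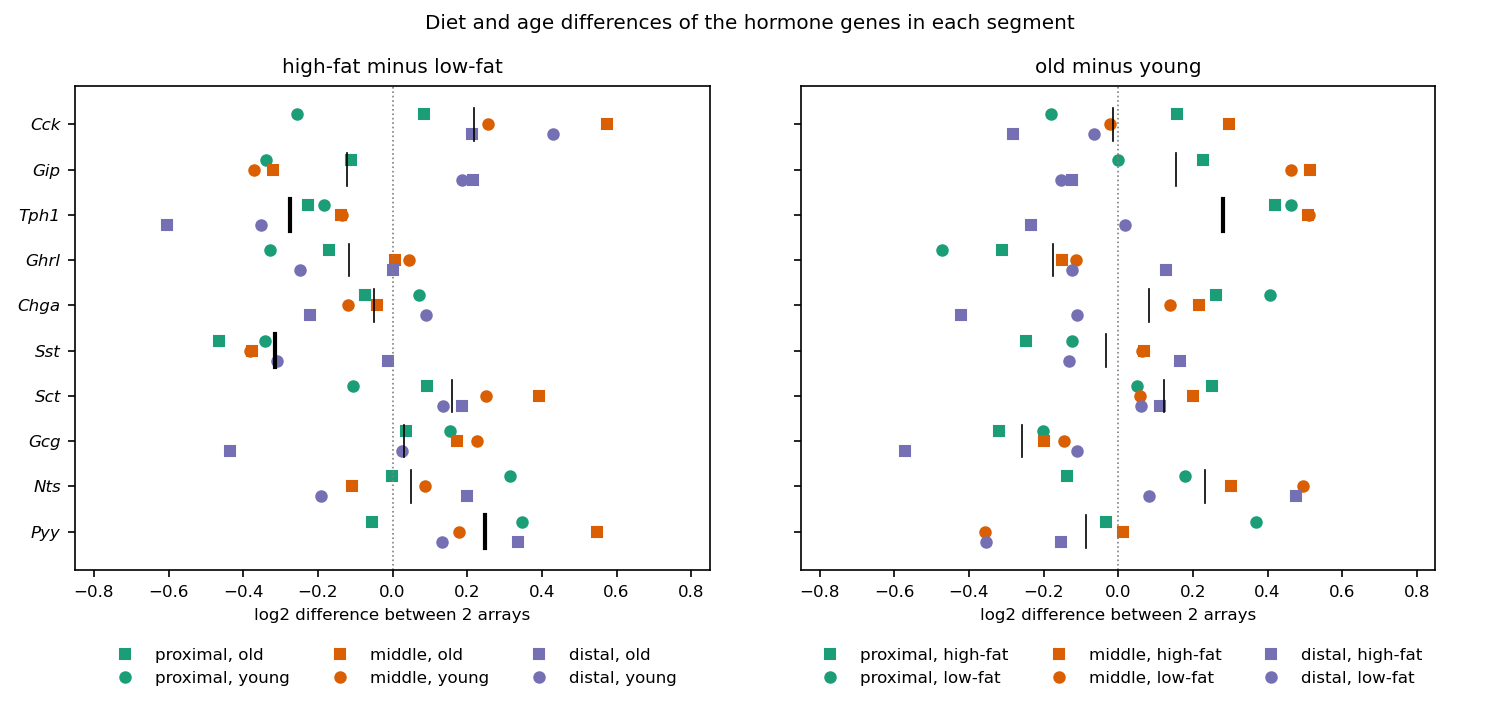
Log2 difference between 2 arrays (horizontal axis) for each of the 10 genes, high-fat minus low-fat on the left and old minus young on the right, with 6 pairs of arrays each and a bar at the difference of the pool means, thick where limma called it. For diet, all 6 Sst and all 6 Tph1 points lie below 0 and 5 of 6 Pyy points above it, and for age all 6 Gcg points lie below 0 and all 6 Sct points above it, while Tph1 has 4 points from 0.42 to 0.51 outside the distal segment.

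The age comparison asked whether the genes differed between old and young mice. Over the pool means 1 of the 10 genes was called, Tph1, higher in old pools, against 2.93% of all genes by limma (0.772% higher and 2.16% lower). Without adjustment 5 of the 10 had a p-value under 0.05, against 17.8% of all genes. Tph1 means were 6.86 (high-fat) and 7.18 (low-fat) in old mice, against 6.63 (high-fat) and 6.85 (low-fat) in young mice, a difference of 0.28 ± 0.05 (1.21-fold, adjusted p = 0.0406). It was higher in old mice in both proximal pairs (by 0.42 on the high-fat and 0.46 on the low-fat diet) and both middle pairs (by 0.51 on each diet), where old and young arrays did not overlap, and lay at -0.23 and 0.02 in the distal pairs, where they did. The call was lost with arrays centred on their medians (adjusted p = 0.0586), with quantile normalization (0.0634), with no filter on dim genes (0.128) and without the proximal (0.173) or middle segment (0.288).

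Chgb, the granule partner of Chga, was also higher in old pools (0.29 ± 0.05, adjusted p = 0.038 by limma), in 6 of 6 pairs by its values. Chga itself was 0.08 ± 0.05 higher (adjusted p = 0.467), with higher old values in the 4 proximal and middle pairs and lower ones in both distal pairs. Scg2 (-0.29 ± 0.05), Pam (-0.36 ± 0.05) and the GLP-2 receptor gene Glp2r (-0.37 ± 0.05) were lower in old pools. Glp2r lay above an intensity of 50 on only 5 of 12 arrays. Of all genes tested, 0.772% were called higher and 2.16% lower in old pools. In the distal segment alone, Cpe was lower in old mice (-0.58 ± 0.07, adjusted p = 0.032). Smooth muscle genes moved with age in the same arrays: 9 of 12 tested were lower in old pools, and the 4 markers summed to 1114.2 (high-fat) and 1999.2 (low-fat) in old and to 2697.5 (high-fat) and 3724.0 (low-fat) in young mice in the distal segment. The part of the submucosa and muscle in a scraping in these age differences was not tested.

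Gcg was lower in old mice in 6 of 6 pairs, by 0.11 to 0.57 on the log2 scale, with means of 8.84 (high-fat) and 8.91 (low-fat) in old and 9.20 (high-fat) and 9.06 (low-fat) in young pools. Its difference of -0.26 ± 0.06 did not pass (adjusted p = 0.0956 by limma). Nts was higher in old mice in 5 of 6 pairs (0.23 ± 0.05, adjusted p = 0.0607), and all 4 of its middle and distal pairs were above 0, from 0.08 to 0.50. Without the proximal segment it was called (0.34, adjusted p = 0.0304). Sct was higher in 6 of 6 pairs by 0.05 to 0.25, with a pool mean difference of 0.12 ± 0.05 (adjusted p = 0.297). Ghrl was lower in 5 of 6 pairs (-0.17 ± 0.05, adjusted p = 0.161), with its largest differences in the proximal pairs, -0.31 (high-fat) and -0.47 (low-fat). In the same proximal arrays the stomach genes Gkn2 (-1.14 ± 0.09, adjusted p = 0.0132 by limma) and Gkn3 (-0.75 ± 0.07, adjusted p = 0.0366) were lower in old mice. They were 2 of 12 tested, in a list that holds Ghrl itself. Ctse (-0.89) and Tff1 (-0.62) were not called, and neither were Atp4b (0.20) and Pgc (0.12), which had positive differences. The part of stomach RNA in the Ghrl values was not tested. Gip was 0.16 ± 0.05 higher (adjusted p = 0.187 by limma), mostly from the middle segment, where it was higher by 0.51 on the high-fat and 0.46 on the low-fat diet. In the middle arrays 5 distal markers (Fabp6, Slc10a2, Fgf15, Slc51a and Slc51b) summed to 2487.9 (high-fat) and 3193.9 (low-fat) in old mice. The sums in young mice were 6272.5 (high-fat) and 3641.1 (low-fat). For 4 proximal markers (Gata4, Cybrd1, Slc40a1 and Bco1) they were, in the same order, 727.2 and 1203.0 in old and 804.2 and 2171.6 in young mice. The part of the place of the cut in the middle values of Gip and Tph1 was not tested. Cck (-0.01), Sst (-0.03) and Pyy (-0.09) had small differences with signs that varied among pairs.

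Within single segments no hormone gene was called for age by limma, against 0.109% of all genes for the proximal, 0.0252% for the middle and 0.655% for the distal segment. At an unadjusted p-value under 0.05 there were 4, 3 and 2 of the 10, against 8.68, 8.8 and 19% of all genes, led by Tph1 in the middle segment (0.51 ± 0.08, adjusted p = 0.192) and Gip there (0.49 ± 0.08, adjusted p = 0.192). With an intensity trend and robust variance Gip in the middle segment passed (adjusted p = 0.00943). None of the 10 genes passed in a comparison of the age or diet effect between segments, where 1 to 4 of the 10 had an unadjusted p-value under 0.05, against 4.96, 11.6 and 8.85% of all genes for the age effect (proximal minus middle, middle minus distal and proximal minus distal) and 6.72, 13.3 and 9.48% for the diet effect. In the same order, the share of all genes called after adjustment was 0.0252, 0 and 0% for the age effect and 0.0252, 0.0755 and 0.0503% for the diet effect. The largest of these differences was that of Gip, with an age difference 0.63 ± 0.11 greater in the middle than in the distal segment (adjusted p = 0.403). The age by diet term was called for none of the 10 and for 0% of all genes by limma, with 316 genes (2.65%) but none of the 10 at an unadjusted p-value under 0.05. Its error is the spread between segments of the same mice and holds no spread between pools.

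By the 2-fold criterion applied to pairs of arrays, none of the 120 age and diet differences of the 10 genes passed. They ran from -0.60 (Tph1, high-fat minus low-fat, distal, old) to 0.57 (Cck, high-fat minus low-fat, middle, old), while 0.255% of all gene values in the 6 age pairs and 0.414% in the 6 diet pairs were over 2-fold. The segment differences of Cck, Gip, Pyy, Nts and Tph1, at 1.57 to 2.48 in size between the ends, all exceeded the largest difference between ages or diets.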

How the data were processed

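The deposited log2 values were made by the authors with the Robust Multi-array Average method (version not given in the sources used here) over the small intestine arrays, which were hybridised in 1 experiment. The genome build of the probe sets is not given in the sources used here, and the only coordinates printed are those of the RefSeq upstream stretches. Of 35556 probe sets, 21789 had 1 symbol, 1621 several and 12146 none in the platform annotation. As in the study's methods, genes needed an intensity over 50 (5.64 on the log2 scale) on at least 1 array, and pancreas genes were removed, here 31 acinar genes from a list written for this work. Values ran from 1.8 to 14.49 and array medians from 5.57 to 5.7.

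Differences were tested with limma 3.58.1 (statmod 1.5.0) in R 4.3.3, with Benjamini-Hochberg adjustment over the 11917 genes kept and a threshold of 0.05. Segments were compared with segment and pool as terms (6 residual degrees of freedom), age and diet within segments in 1 fit to the 12 arrays (3), and age and diet over the 4 pool means (1). The age by diet term came from the fit with segment and pool. Because the 3 arrays of each pool come from the same mice, duplicateCorrelation was run, which gave 0.139 in the first design and -0.081 in the second. A plain difference between 2 arrays was set against 2-fold with no p-value. Tables were read and motifs searched in Python 3.11.15 (pandas 2.3.3, scipy 1.17.1, numpy 2.4.6), and figures drawn with matplotlib 3.10.9. The scripts were tested on simulated data. The number of arrays limits the precision.

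The 10 genes and the other gene lists were chosen with earlier results of these data known. Genes named are the 10, and for each of them the 3 genes most like it by Pearson correlation over 12 arrays. Called members of other lists are named as well, at most 6 a list and comparison, mostly by size and not always all. Examples of those not called, and markers of other tissues beside a result they touch, are also named. Alternatives covered the filter, the probe set rule, acinar genes, median centring, quantile normalization, limma's intensity trend with robust variance, the pool block, the arrays of a segment alone, and pools, arrays or segments left out.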

Additional observations from a re-analysis of the deposited data

How the results depend on the processing

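No result for the 10 genes that was called in the main fit or in an alternative changed its sign between them. Changes of sign among results called in neither were not counted. With an intensity trend and robust variance in limma, the number of the 10 genes called became 1 for age in the middle segment, 1, 4 and 1 for diet in the proximal, middle and distal segments, and 1 for the diet effect of middle minus distal, against 0 in each otherwise, and 4 for age and 5 for diet over the pool means, against 1 and 3. With the arrays of the middle segment alone, 1 gene (Sst, adjusted p = 0.0401 by limma) was called for diet. The count for age over the pool means became 0 with no filter on dim genes, median centring, quantile normalization, the middle segment left out, or 12 arrays with additive terms. The count for diet over the pool means became 0 with no filter or without the middle segment, and 1 without the distal segment or with 12 additive arrays. With 1 pool left out, 6 to 8 genes were called for proximal minus middle, 6 to 7 for middle minus distal and 9 to 10 for proximal minus distal. With 1 of the 12 arrays left out, the counts for age and diet within segments stayed at 0. With no replicate block for the pool, the calls of Sst at the first boundary (adjusted p = 0.129), Gcg at the second (0.079) and Sct between the ends (0.0703) were lost. With a random block Sst at the first boundary was lost (0.073), and with quantile normalization Sct between the ends (0.0865). Single-gene results outside these counts kept their side of the threshold in 2939 of the comparisons with an alternative, passed it newly in 16 and lost it in 35; the causes were not tested. Among all genes tested, the trend and robust variance raised the number called to 77, 30 and 451 for age in the proximal, middle and distal segments (13, 3 and 78 otherwise), to 233, 858 and 435 for diet there (38, 303 and 63), and to 703 for age and 1431 for diet over the pool means (349 and 682), for which the lowest counts were 84 (age, without the distal segment) and 132 (diet, without the middle segment). Without the old low-fat pool, 1558 genes were called for proximal minus middle (2973 with it) and 2516 for middle minus distal (4127 with it). With 1 array left out, the counts ran over 0 to 4, 0 to 8 and 1 to 66 for age and 13 to 35, 26 to 267 and 9 to 61 for diet in the 3 segments. A pool could not be left out of the pool means, since no residual degree of freedom remained. Pooled RNA with 1 array a group leaves the spread between mice unmeasured, and the calls over the pool means, with 1 residual degree of freedom, rest on a spread borrowed across genes.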

Other observations

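The genes whose values followed each hormone gene most closely over the 12 arrays are given as a description, since the arrays share segments and mice and most of the likeness is the segment order. For Cck the nearest were the respiratory chain genes Uqcrc1 (Pearson r = 0.998, Spearman rho = 1.0) and Sdhc (0.995 and 0.993) and the glutathione transferase gene Gstm7 (0.995 and 0.944). For Gip they were Sfxn1 (r = 0.996), Plpp1 (0.993) and Uap1l1 (0.993), for Tph1 Pon3 (0.988), Akr1e1 (0.982) and Blnk (0.982), and for Ghrl Pde8a (0.967), Cyp2c29 (0.963) and Tha1 (0.96). Of the genes highest in the distal segment, Pyy was most like Cdc25b (0.988), Cdkn2b (0.984) and Cyp4f40 (0.983), and Gcg most like the histone chaperone gene Asf1b (0.987), Plp2 (0.987) and the purine synthesis gene Gart (0.984). Nts was most like Mtmr11 (0.972), Vnn1 (0.969) and Rad50 (0.966), with Spearman rho of 0.79 to 0.818. Sst was most like Sft2d2 (0.974), Tiparp (0.974) and Retreg1 (0.967), and Chga most like Fuom (0.958), the lymphocyte granzyme gene Gzma (0.958) and Tmbim4 (0.956). Sct had the loosest match, Cdc42ep5 (0.935), followed by Slc25a10 (0.933) and Coa3 (0.931).

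Among the 10 genes themselves, Tph1 and Chga, both of enterochromaffin cells, had r = 0.95 over the 12 arrays, and 0.745 after the mean of each segment was removed. The other pairs beyond 0.6 in size with segment means removed were Cck with Sct (0.768), Pyy with Sst (-0.622) and Ghrl with Chga (-0.66). Cck and Gip, both of the upper gut, had 0.915 over the 12 arrays and 0.119 with segment means removed.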
